A study of Mus musculus with 14 samples.

Results

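The effect of a choline-deficient diet on total liver was measured on 8 of the 14 arrays of the series, 4 from mice on the control diet CSAA and 4 from mice on CDAA. These 8 were chosen by their titles, and they were compared with each other alone, so that the spread between arrays came from total liver only. All were adult male wild-type C57Bl6 mice kept on their diet for 2 weeks. CSAA was the control diet, and CDAA, called CDAA-HSHC in the series title, carried added cholesterol, glucose and fructose. The lack of choline and these additions cannot be told apart here. The tissue was a piece of the caudal lobe, taken once the heart had been perfused with saline, and its RNA was extracted with a kit for lipid-rich tissue. The design text speaks of 4 independent preparations of total liver, and nothing says whether each came from a separate mouse, so the p-values measure the spread between these preparations. The other 6 arrays held hepatocytes isolated with collagenase, 3 per diet, and serve here only for 1 comparison at the end.

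Choline is needed to make phosphatidylcholine, the main phospholipid of the lipoprotein particles that carry triglyceride out of the liver, and mice without it store fat in hepatocytes. Cholesterol in the diet lowers the processing of SREBP2, the factor that drives the genes of cholesterol synthesis, and oxidised sterols raise the export genes through LXR. Fat-laden and dying hepatocytes draw in monocytes, which become macrophages that take up lipid, and activated stellate cells lay down collagen. In male mice, pulses of growth hormone keep a male set of liver genes on and a female set off.

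Levels are log2 values as the authors deposited them, so a difference of 1 is a doubling, and differences are CDAA minus CSAA ± SE with 4 arrays per diet. Background was read on each array as the 95th percentile of its 5222 intron control probe sets, which lay at 9.96 to 10.2. This is a strict limit, since only 19.5% to 22.4% of the tested probe sets of an array exceeded it, and probe sets without a genomic target had medians of 4.83 to 5.38. Where all arrays of the dimmer diet lay under it, the word "floor" gives the part of the difference that is left with that diet set to background. A gene marked "dim" has no such part left, so the mean of its brighter diet lay at or under that limit. Single arrays of a dim gene could still exceed it, as 2 CDAA arrays did for Abcb1a. A gene is called when limma's adjusted p over all 22206 tested probe sets is under 0.05, and the words rose and fell are kept for called genes. Each array held 261 to 292 values above 16, up to 19.36 for Alb, the gene of albumin, beyond the range of an unscaled scanner reading, so the upper part of the scale may be stretched in a way the sources used here do not give.

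The diets stood far apart. Of 22206 probe sets, 2603 were called higher on CDAA (11.7%) and 2010 lower (9.05%), together 4613 (20.8%), and 1390 and 496 of them differed by at least 1. All 4 arrays of one diet lay beyond all 4 of the other in 5557 probe sets (25%). The first principal component, with 63.7% of the variance, held the CSAA arrays at -60.3 to -47.3 and the CDAA arrays at 43 to 71.9, the highest being CDAA replicate 1. Higher calls made up 56.4% of all calls, but 33.9% once each array was centred on its median, when 2106 were higher and 4102 lower, and 49.9% after quantile normalization. The median difference over all probe sets was -0.092 and moved to -0.231 with centring, so small changes of either sign depend on the scaling. Among the 3873 probe sets above background on all 8 arrays, 549 rose and 556 fell. Among the 16553 under it on all 8, 1455 rose and 1187 fell. Of all calls, 2335 were made only with the total liver arrays alone in the fit, and 2278 were also made with all 14 arrays sharing 1 spread; the median SE was 0.181 in the first and 0.241 in the second.

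**Figure D1:**
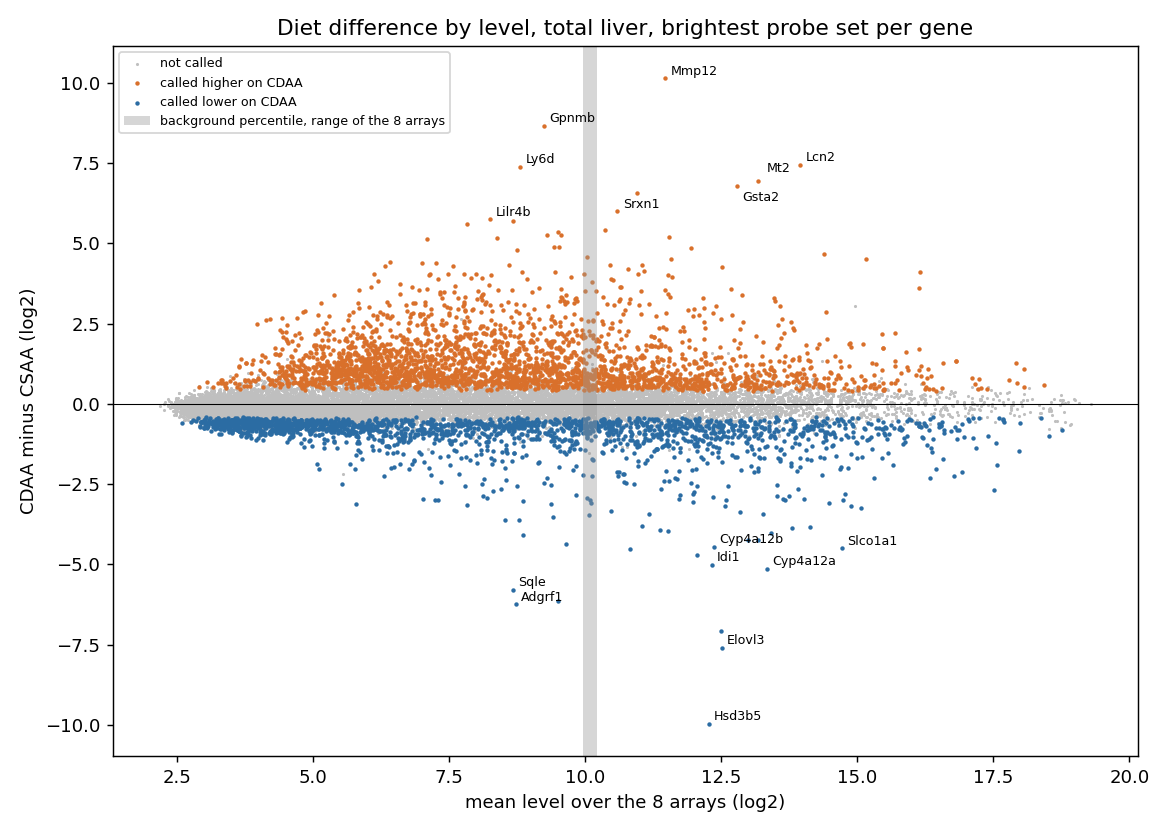
Difference between the diets (CDAA minus CSAA, log2) against the mean level over the 8 total liver arrays (log2), 1 point per gene, coloured where called higher or lower. The largest rises lie among genes that are under the background percentile (grey band) on CSAA, and the largest falls among genes above it, from Mmp12 at 10.15 to Hsd3b5 at -9.97.

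The labels fit the tissue. All 6 hepatocyte markers checked lay above background on both diets, and 1 of them fell, Hnf4a. None of 8 markers of pancreas, gut, muscle or fat lay above background or was called. Recruited macrophage markers rose in 5 of 5, Kupffer cell markers in 4 of 5, stellate markers in 3 of 5, endothelial in 2 of 5, neutrophil in 2 of 3 and T and NK cell in 1 of 4, while 0 of 4 cholangiocyte and 0 of 2 B cell markers were called. Above background on all 4 CDAA arrays lay 1 recruited macrophage, 3 Kupffer cell and 3 endothelial markers. Of the stellate, neutrophil, T and NK, cholangiocyte and B cell markers 0 did so on either diet. A marker under background therefore does not show that its cells were absent. Alas2, the haem synthesis enzyme of red blood cell precursors, was the only blood marker found and fell, from 11.56 to 12.53 on CSAA to 8.97 to 10.08 on CDAA. The part that blood left in the tissue, or the mix of cells, had in other results was not tested, and in whole tissue fewer cells of a type and less RNA per cell cannot be told apart.

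The 15 genes with the largest rise were led by genes known from macrophages and from responses to metals, oxidants and damage. Mmp12, the elastase of macrophages, measured 5.93, 6.70, 6.42 and 6.51 on CSAA replicates 1 to 4 and 17.02, 16.29, 16.41 and 16.45 on CDAA replicates 1 to 4. Gpnmb, a lysosomal glycoprotein of lipid-laden macrophages, measured 4.93, 5.85, 4.7 and 4.16 on CSAA and 14.46, 12.68, 13.64 and 13.51 on CDAA. Neither gene passed background on any CSAA array, and both passed it on all 4 CDAA arrays, with differences of 10.15 ± 0.21, floor 6.46 and 8.67 ± 0.39, floor 3.49 (limma, adjusted p = 4.52e-10 and 1.95e-07). Lcn2, the siderophore-binding protein lipocalin 2, measured 9.43, 8.51, 11.01 and 11.94 on CSAA and 18.19, 17.70, 17.59 and 17.23 on CDAA. Mt2, a metallothionein that binds zinc and copper, measured 8.37, 9.18, 10.77 and 10.51 on CSAA and 17.70, 16.85, 16.23 and 15.77 on CDAA. The CSAA arrays spread over more than 2 log2 units for both genes, CSAA replicates 3 and 4 being the higher ones, and still lay far under every CDAA array (7.46 ± 0.59 and 6.93 ± 0.53). Ly6d, a small membrane-anchored protein, measured 5.07, 5.20, 5.13 and 5.04 on CSAA and 13.54, 11.94, 12.23 and 12.30 on CDAA (7.39 ± 0.29, floor 2.42), with CDAA replicate 1 the highest. The other members were Gsta2 (6.78 ± 0.33), a glutathione transferase, Srxn1 (6.0 ± 0.41, floor 3.51), which restores oxidised peroxiredoxins, and Lilr4b (5.75 ± 0.20, floor 1.04), an inhibitory receptor of myeloid cells. Ifi27l2b (5.71 ± 0.25, floor 1.45) and Lgals3 (5.62 ± 0.30, floor 0.56), the galectin of activated macrophages, followed. So did Anxa2 (5.35 ± 0.25, floor 2.09), a membrane-binding annexin, Atp6v0d2 (5.26 ± 0.39, floor 1.84), a proton pump subunit of macrophages, and Cidec (5.18 ± 0.29, floor 0.89), which fuses lipid droplets. Cdkn1a (4.89 ± 0.53, floor 1.88), the cell cycle inhibitor p21, and Il1rn (4.88 ± 0.36, floor 1.79), the antagonist of interleukin 1, closed the group. Lilr4b and Gsta2 have near-identical paralogues that the probe sets may not tell apart. CDAA replicate 1 was the highest CDAA array in 12 of the 15 genes and replicate 2 in the other 3.

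**Figure D2:**
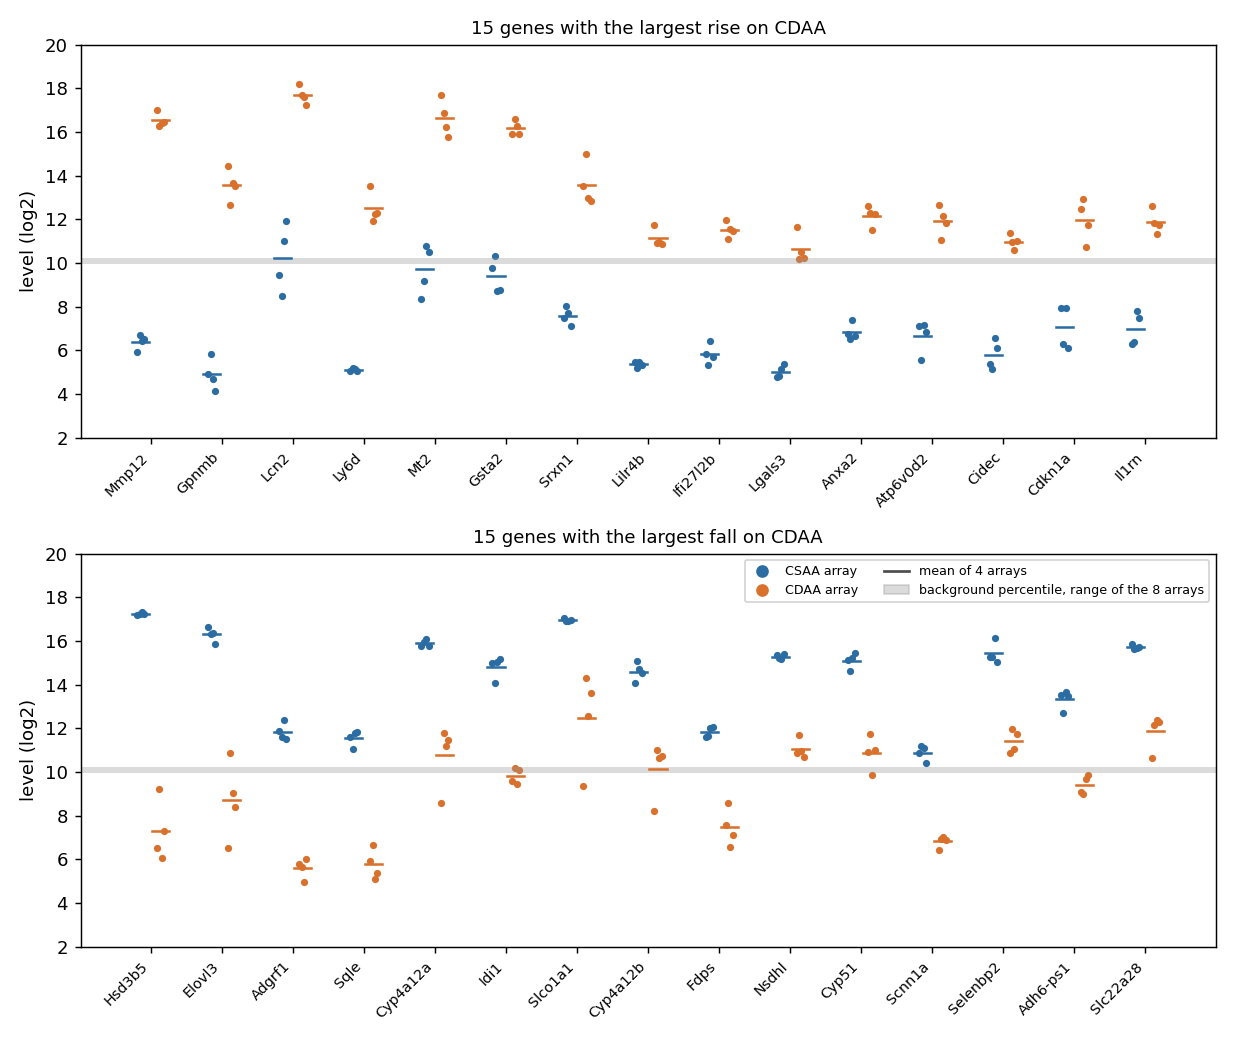
Levels (log2) on each of the 4 CSAA and 4 CDAA arrays of total liver for the 15 genes with the largest rise (top) and the 15 with the largest fall (bottom), with the mean of each diet as a line. The rule that chose the 30 genes asked for diets that do not overlap. The dimmer diet lies wholly under background (grey band) in 12 of the 15 rises and 6 of the 15 falls.

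Most of the 15 genes with the largest fall encode enzymes or transporters, beside a receptor, a channel subunit and a pseudogene. Hsd3b5, a male-specific steroid dehydrogenase, measured 17.19, 17.24, 17.33 and 17.25 on CSAA and 6.54, 9.24, 6.04 and 7.31 on CDAA. The CSAA arrays lay within 0.15 of each other while the CDAA arrays spread over 3 log2 units, all of them under background (-9.97 ± 0.53, floor -7.22, limma, adjusted p = 4.85e-07). Elovl3, an elongase of very long fatty acids, measured 16.64, 16.32, 16.38 and 15.87 on CSAA and 6.51, 10.89, 9.05 and 8.40 on CDAA (-7.59 ± 0.68). Adgrf1, an adhesion-type receptor, measured 11.89, 11.59, 12.38 and 11.53 on CSAA and 5.81, 5.64, 4.97 and 6.02 on CDAA (-6.24 ± 0.25, floor -1.81), with all 4 CDAA arrays within about 1 log2 unit. 5 of the 15 were enzymes of cholesterol synthesis and are given with that pathway. The rest were the fatty acid hydroxylases Cyp4a12a (-5.14 ± 0.56) and Cyp4a12b (-4.44 ± 0.51), near-identical copies, the organic anion carriers Slco1a1 (-4.49 ± 0.81) and Slc22a28 (-3.86 ± 0.33), and the selenium-binding protein Selenbp2 (-4.02 ± 0.29). The epithelial sodium channel subunit Scnn1a (-4.07 ± 0.20, floor -0.86) and the alcohol dehydrogenase pseudogene Adh6-ps1 (-3.94 ± 0.26, floor -3.30) completed them. On CDAA replicate 1 Cyp4a12a, Cyp4a12b, Slco1a1 and Slc22a28 were each lower than on the other CDAA arrays, at 8.59, 8.21, 9.38 and 10.65. CDAA replicate 2 was the highest CDAA array in 11 of the 15 genes, the 5 sterol enzymes included. Families such as Cyp4a12, Cyp2a, Gst, Mup, Ces, Ly6, Klr and the MHC genes share much sequence, and whether their probe sets tell the members apart was not checked.

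Nearly the whole pathway of cholesterol synthesis was down. Of 17 measured genes 16 fell, 14 of them from a level above background, with a median of -3.00 against -0.092 over all probe sets. This list and those that follow were chosen with earlier results of these data known. Along the pathway fell the synthase Hmgcs1 (-3.24 ± 0.17) that makes HMG-CoA, the mevalonate enzymes Mvk (-1.88 ± 0.32, dim), Pmvk (-3.11 ± 0.23, floor -0.90) and Mvd (-3.00 ± 0.16, dim), and the isomerase Idi1 (-5.01 ± 0.26). Then came the farnesyl synthase Fdps (-4.37 ± 0.35, floor -1.80), the squalene synthase Fdft1 (-2.99 ± 0.23), the epoxidase Sqle (-5.80 ± 0.31, floor -1.53) and the cyclase Lss (-2.65 ± 0.19). Past lanosterol fell Cyp51 (-4.23 ± 0.33), Msmo1 (-3.45 ± 0.16, floor -1.76), Nsdhl (-4.24 ± 0.20), Hsd17b7 (-2.47 ± 0.16), Ebp (-1.44 ± 0.14), Sc5d (-1.04 ± 0.13) and Dhcr7 (-2.82 ± 0.27). Ggps1 (0.09 ± 0.14, dim), which makes the lipid anchor of small GTPases on a side branch, was the 1 measured member that was not called. Idi1 measured 14.997, 14.08, 15.05 and 15.18 on CSAA and 9.60, 10.16, 9.44 and 10.08 on CDAA. Nsdhl measured 15.37, 15.20, 15.20 and 15.39 on CSAA and 10.86, 11.69, 10.96 and 10.70 on CDAA. In both genes the CDAA arrays lay within 1 log2 unit of each other and over 3 units under the lowest CSAA array. Hmgcs1, Mvk, Pmvk, Fdft1, Lss, Hsd17b7, Ebp, Sc5d, Dhcr7 and Ggps1 were named after their values were seen.

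The upstream sequence of 5 of the enzymes that fell by about 3 or more is shown, without Sqle, Fdps, Pmvk and Mvd, because SREBP2 works at promoters of this pathway beside the factor NF-Y, whose core letters are CCAAT. The sequences are from RefSeq on the build GRCm38.p6, 5′ to 3′ on the gene's own strand, with CCAAT or its complement ATTGG in capitals.
Idi1, chr13:8885562-8885605, + strand: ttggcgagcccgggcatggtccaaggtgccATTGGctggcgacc
Nsdhl, chrX:72918471-72918520, + strand: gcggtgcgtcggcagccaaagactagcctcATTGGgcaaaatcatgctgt
Cyp51, chr5:4104698-4104756, - strand: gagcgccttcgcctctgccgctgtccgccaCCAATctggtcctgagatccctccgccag
Msmo1, chr8:64733599-64733663, - strand: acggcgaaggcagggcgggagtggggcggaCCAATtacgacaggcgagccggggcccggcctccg
Hmgcs1, chr13:119690276-119690340, + strand: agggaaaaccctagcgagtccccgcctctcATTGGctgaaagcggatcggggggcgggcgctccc
In the 300 bases around the start sites (250 before and 50 after), read on both strands, 15 of the 16 genes of the cholesterol synthesis list with a promoter in the table held CCAAT (93.8%), against 41.1% of all 27025 genes. The 15 included Ggps1, which was not called, and Tm7sf2, which was not among the measured members. In the sterol sensing and LDL uptake list, where 4 genes rose and 4 fell, 9 of 12 held CCAAT (75%). The sterol element TCACNCCAC, which the search found in 1.44% of all genes, was in 1 of the 16, Hmgcs1, where it is in capitals in this stretch at chr13:119690184-119690252 on the + strand.
Hmgcs1: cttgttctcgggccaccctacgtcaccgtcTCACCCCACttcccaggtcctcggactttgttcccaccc
Of the sterol sensing and LDL uptake list 0 of 12 genes held the sterol element. These are matches of letters only. Binding was not measured, and other spellings of the element were not searched.

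The genes that hold and sense sterols were divided, and those of sterol export that were called rose. Insig1 (-2.98 ± 0.20), which holds SREBP in the endoplasmic reticulum, Stard4 (-3.44 ± 0.29), a sterol carrier, Scap (-1.32 ± 0.15), the escort of SREBP, and Srebf2 (-1.03 ± 0.15), which encodes SREBP2, fell. Rnf145 (1.97 ± 0.21, floor 1.09), a ubiquitin ligase induced by LXR, and Mylip (1.06 ± 0.21, floor 0.24), another ubiquitin ligase, rose, as did the lysosomal cholesterol carriers Npc1 (0.69 ± 0.21) and Npc2 (1.03 ± 0.21, floor 0.19). Together the sensing and uptake list counted 4 up and 4 down of 14. Of 9 measured genes of export and esterification 4 rose and 0 fell, the risers being Abcg1 (2.08 ± 0.23, dim), Pltp (2.40 ± 0.29), Lipa (0.89 ± 0.13) and Abcg5 (1.51 ± 0.44), of which Abcg1, Abcg5 and Pltp move lipid and Lipa is the lysosomal lipase. Abcg5 measured 12.70, 12.38, 11.80 and 11.89 on CSAA and 14.004, 12.12, 14.12 and 14.54 on CDAA, and its groups overlapped. Mylip, Npc1 and Npc2 were named after their values were seen. Npc1 lost its call without CSAA replicate 3 or 4 or CDAA replicate 2, 3 or 4 (0.54 to 0.75). Abcg5 lost its call without CSAA replicate 2, 3 or 4 or CDAA replicate 1, 3 or 4 (1.23 to 1.57).

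In bile acid synthesis Cyp7a1 of the classical entry rose and Cyp7b1 and Cyp27a1 of the alternative pathway fell. Cyp7a1, which starts the classical pathway, measured 13.55, 13.14, 14.87 and 15.91 on CSAA and 15.88, 16.40, 17.36 and 16.52 on CDAA (2.18 ± 0.53), a range that overlapped in CSAA replicate 4. With trend and robust moderation its call was lost (limma, adjusted p = 0.0652). Cyp8b1, which sets the share of cholic acid, measured 12.74, 13.61, 13.20 and 13.27 on CSAA and 8.20, 12.24, 10.69 and 9.83 on CDAA (-2.97 ± 0.64), without overlap but over 4 units among the CDAA arrays. Cyp7b1 (-3.84 ± 0.29) and Cyp27a1 (-0.74 ± 0.16) of the alternative pathway fell, while Cyp39a1 (2.55 ± 0.22), which hydroxylates 24-hydroxycholesterol, rose. Slc27a5 (-1.11 ± 0.17), which activates bile acids for conjugation, and Hsd3b7 (-0.78 ± 0.15) fell too. The list counted 3 up and 7 down of 18 (16.7% and 38.9%, against 11.7% and 9.05% of all probe sets). The bile acid receptor Nr1h4 (-0.61 ± 0.21) and its target repressor Nr0b2 (-0.56 ± 0.71) were not called.

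Carriers of bile acids and organic anions were split, importers being lower in the main and exporters higher. Of 18 measured, 8 rose and 8 fell. Uptake carriers of the blood side fell, among them Slc10a1 (-1.5 ± 0.29), the bile salt importer, Slco1b2 (-0.78 ± 0.25), Slco2b1 (-1.5 ± 0.27) and Slc22a7 (-3.00 ± 0.33, floor -1.56), besides Slco1a1, Slc22a28 and Slc22a30 (-2.30 ± 0.20). Efflux pumps rose, Abcc4 (4.32 ± 0.22, floor 0.69) and Abcc3 (1.76 ± 0.24) on the blood side, Slc51b (1.90 ± 0.38, dim), and Abcc2 (0.88 ± 0.14), Abcb4 (1.07 ± 0.14) and Abcb1a (4.06 ± 0.41, dim) on the canalicular side. The canalicular bile salt pump Abcb11 (-0.40 ± 0.20) was not called. Abcc4 measured 6.76, 6.22, 6.58 and 6.23 on CSAA and 10.82, 10.54, 10.38 and 11.34 on CDAA, with all CDAA arrays above background and no CSAA array above it. 2 uptake carriers went up, Slco1a4 (2.75 ± 0.53) and Slc22a27 (3.16 ± 0.41, dim), and the flippase Atp8b1 (-0.90 ± 0.22) went down with the importers. Slc10a1, Slco1b2, Slco2b1, Slc22a7, Abcc3, Slc51b, Abcc2, Abcb4, Abcb11, Slco1a4 and Atp8b1 were named after their values were seen.

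**Figure D3:**
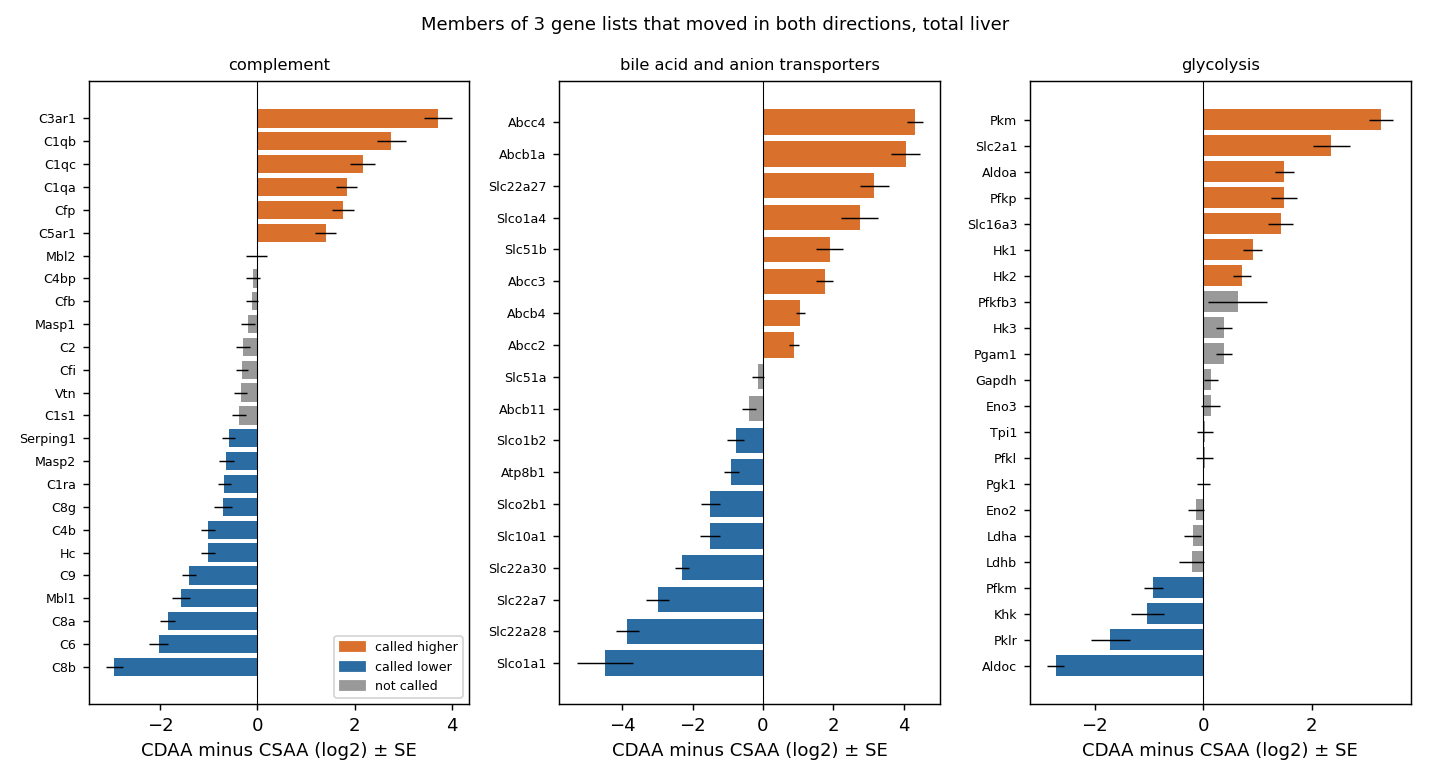
Difference CDAA minus CSAA (log2) with its SE for each measured member of 3 gene lists in total liver, coloured where called higher or lower. Complement holds 6 higher and 11 lower genes, the anion transporters 8 and 8, and glycolysis 7 and 4.

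Enzymes that make fatty acids were lower. Of 15 lipogenic genes 13 fell and 1 rose, with a median of -1.06; with 1 spread for all 14 arrays 5 were called lower. Falling members included Acss2 (-2.41 ± 0.25) and Acly (-2.54 ± 0.27), which supply acetyl-CoA, Fasn (-1.92 ± 0.35), fatty acid synthase, Gpam (-1.02 ± 0.16), the first step of glycerolipid synthesis, Thrsp (-3.36 ± 0.41), and Mlxipl (-1.17 ± 0.16), the carbohydrate-sensing factor ChREBP. Acly measured 14.44, 14.84, 15.08 and 14.78 on CSAA and 12.31, 12.99, 11.53 and 12.18 on CDAA. Fasn measured 13.80, 14.07, 14.21 and 13.94 on CSAA and 12.07, 13.23, 11.06 and 12.00 on CDAA. Every CDAA array of both genes lay under every CSAA array. The member that rose was Scd1 (0.54 ± 0.17), the delta-9 desaturase, at 17.94, 18.05, 17.82 and 17.37 on CSAA and 18.34, 18.54, 18.28 and 18.18 on CDAA, and with centring it was not called. Desaturases and elongases counted 4 up and 4 down of 14, and 1 up and 5 down with centring. Elongases parted, Elovl7 (3.83 ± 0.25, dim) rising and Elovl3 (-7.59 ± 0.68) and Elovl6 (-0.83 ± 0.26) falling, and Tecr (-1.0 ± 0.17), the last reductase of elongation, fell. Elovl6 was named after its value was seen. Scd1 lost its call without CSAA replicate 1, 3 or 4 or CDAA replicate 1, 2, 3 or 4 (0.40 to 0.59). Elovl6 lost its call without CSAA replicate 1, 3 or 4 or CDAA replicate 1, 3 or 4 (-0.81 to -0.70). The 4 higher calls of the desaturases and elongases list became 1 to 2 without CSAA replicate 3 or 4 or CDAA replicate 1, 2, 3 or 4. The 4 lower calls of the desaturases and elongases list became 2 without CSAA replicate 1, 3 or 4 or CDAA replicate 1 or 3.

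Genes of fat storage and uptake rose in part. Cd36 (4.52 ± 0.21, floor 3.76), a scavenger and fatty acid receptor, measured 9.07, 8.95, 9.63 and 9.64 on CSAA and 14.16, 13.49, 13.93 and 13.81 on CDAA. Lpl (4.21 ± 0.44, floor 2.82), lipoprotein lipase, measured 8.47, 8.39, 9.58 and 8.34 on CSAA and 14.39, 12.23, 12.59 and 12.39 on CDAA. Neither lay above background on a CSAA array, and both did on every CDAA array. Fabp7 (3.87 ± 0.21, floor 2.36) and Fabp4 (1.78 ± 0.29, floor 0.33), fatty acid binding proteins, rose, and Fabp5 (-2.94 ± 0.34, floor -1.46) and the liver form Fabp1 (-1.09 ± 0.19) fell; uptake genes counted 6 up and 3 down of 14, and 6 and 5 with centring. Of 18 lipid droplet genes 4 rose and 2 fell (22.2% and 11.1%, against 11.7% and 9.05% of all probe sets). Cidec, Hsd17b13 (0.74 ± 0.14), Plin3 (0.82 ± 0.22, floor 0.44) and Plin4 (0.86 ± 0.26, dim) rose, Fitm1 (-0.83 ± 0.21, dim) and Fitm2 (-0.66 ± 0.17, dim) fell, and Plin2 (0.03 ± 0.18), the main coat of hepatocyte droplets, was not called. After centring 4 of this list were lower and 3 higher. Triglyceride synthesis and VLDL genes counted 2 up and 5 down of 15 (13.3% and 33.3%, against the same shares). Among them Gpat3 (3.32 ± 0.21, floor 1.14) rose while Gpam, Lpin1 (-2.09 ± 0.51) and Mttp (-0.81 ± 0.14), which loads lipid on apolipoprotein B, fell. Lpin1 lost its call with trend and robust moderation (limma, adjusted p = 0.054). Apob itself stood at 17.98 ± 0.04 (SD, n = 4) on CSAA and 18.10 ± 0.05 (SD, n = 4) on CDAA and was not called. Apolipoproteins, against the 11.7% and 9.05% of all probe sets, counted 1 up and 2 down of 16, and 1 up and 6 down with centring. The one that rose was Apoa4 (4.12 ± 0.25), at 13.66, 14.22, 14.86 and 13.65 on CSAA and 18.45, 18.06, 18.19 and 18.18 on CDAA, and Apom (-1.4 ± 0.15) and Apon (-0.53 ± 0.16) fell. Fabp4, Fabp1, Plin3, Plin4, Lpin1 and Apob were named after their values were seen. Plin3 lost its call without CSAA replicate 1 or 4 or CDAA replicate 1 (0.65 to 0.77). Plin4 lost its call without CSAA replicate 1, 2 or 3 or CDAA replicate 3 or 4 (0.63 to 0.88). Fitm1 lost its call without CDAA replicate 4 (-0.80). Fitm2 lost its call without CSAA replicate 1 or CDAA replicate 1 (-0.58 to -0.57). Apon lost its call without CSAA replicate 1, 3 or 4 or CDAA replicate 1, 2 or 4 (-0.54 to -0.46). The 4 higher calls of the lipid droplet proteins list became 2 without CSAA replicate 1.

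Of 24 genes of fatty acid oxidation 6 rose and 1 fell, and with centring 4 were higher and 3 lower. The main counts are 25% and 4.17%, against 11.7% and 9.05% of all probe sets. Pdk4 (2.14 ± 0.33, dim), which shuts glucose carbon out of mitochondria, Acot2 (3.96 ± 0.36) and Acot4 (2.15 ± 0.40, dim), acyl-CoA thioesterases, Acadm (0.66 ± 0.17), Cyp4a10 (1.89 ± 0.61) and Ehhadh (1.16 ± 0.38) rose and Acaa2 (-0.66 ± 0.15) fell. Acot2 measured 10.64, 9.08, 8.82 and 9.93 on CSAA and 13.81, 13.14, 13.99 and 13.37 on CDAA; its paralogues Acot1 and Acot3 had 1.77 ± 0.62, dim, not called and 2.64 ± 1.04, dim, not called, and whether the probe sets tell the copies apart was not checked. Cyp4a14 (3.07 ± 1.02), a fatty acid hydroxylase, was not called, at 15.85, 11.97, 10.38 and 15.54 on CSAA and 16.72, 15.68, 17.13 and 16.46 on CDAA. Subunits of the respiratory chain counted 0 up and 5 down of 24, among them Ndufb5 (-0.72 ± 0.16) and Sdha (-0.69 ± 0.15), and ribosomal proteins 2 up and 0 down of 21. For the ribosomal proteins that is 9.52% up, against 11.7% of all probe sets. With centring 13 respiratory chain subunits were lower, and with all 14 arrays in the fit 0. Acadm, Cyp4a10, Ehhadh, Acot1, Acot3 and Cyp4a14 were named after their values were seen. Cyp4a10 lost its call without CSAA replicate 2 or 3 or CDAA replicate 1, 2, 3 or 4 (1.22 to 1.94). Ehhadh lost its call without CSAA replicate 2, 3 or 4 or CDAA replicate 1, 3 or 4 (0.90 to 1.21). The 6 higher calls of the fatty acid oxidation list became 10 without CSAA replicate 1. The 5 lower calls of the respiratory chain subunits list became 2 to 3 without CSAA replicate 2 or 3 or CDAA replicate 4.

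In choline metabolism the phosphatidylcholine genes were divided, and most of the betaine and methionine cycle fell. Chka, which phosphorylates choline, measured 10.12, 9.11, 9.92 and 8.39 on CSAA and 13.35, 11.84, 7.95 and 9.41 on CDAA (1.25 ± 0.94, not called), above every CSAA array on CDAA replicates 1 and 2 only. Pemt (-0.32 ± 0.16), which makes phosphatidylcholine from phosphatidylethanolamine, was not called. Pcyt2 (-0.60 ± 0.13) of the ethanolamine branch fell, and Slc44a2 (0.98 ± 0.18, dim), a choline transporter, and Lpcat1 (0.68 ± 0.17, dim) and Lpcat2 (2.55 ± 0.31, dim), which reacylate phospholipids, rose. The phospholipid list counted 4 up and 2 down of 20, a balance that turned to 3 and 6 with centring and to 2 and 5 with quantile normalization. That is 20% up and 10% down, against 11.7% and 9.05% of all probe sets. Of the betaine and methionine cycle 11 of 18 fell and 1 rose, with a median of -0.64. Gnmt (-1.01 ± 0.17), which spends methyl groups on glycine, measured 16.36, 16.71, 16.52 and 16.07 on CSAA and 15.64, 15.39, 15.37 and 15.23 on CDAA. Dmgdh (-0.60 ± 0.19) and Sardh (-0.97 ± 0.16), which break down the products of betaine, Pipox (-1.21 ± 0.20), Shmt1 (-1.30 ± 0.20), and Cbs (-0.95 ± 0.15), which takes homocysteine out of the cycle, fell as well. Mat1a (0.47 ± 0.14), which makes S-adenosylmethionine, was the member that rose, and Bhmt (-0.13 ± 0.17) was not called. With all 14 arrays in the fit, 3 of these enzymes were called lower in place of 11. Dmgdh, Sardh, Mat1a and Bhmt were named after their values were seen. Dmgdh lost its call without CSAA replicate 1, 2 or 3 or CDAA replicate 1, 2, 3 or 4 (-0.64 to -0.47). Mat1a lost its call without CSAA replicate 1, 2 or 3 or CDAA replicate 1, 2, 3 or 4 (0.41 to 0.50).

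Male-biased and growth hormone responsive genes fell together. Of 22 measured 18 fell and 0 rose, with a median of -2.14. Averaged over the list, the CDAA arrays stood at -3.73, -2.48, -2.78 and -2.57 against the CSAA mean, replicate 1 the lowest. Besides Hsd3b5, Elovl3, the Cyp4a12 copies and Slco1a1 fell Cyp7b1 (-3.84 ± 0.29), Serpina1e (-2.70 ± 0.24), Nudt7 (-3.18 ± 0.30), Cyp2d9 (-1.89 ± 0.34) and the urinary proteins Mup21 (-2.24 ± 0.45) and Mup3 (-1.47 ± 0.31). The receptor Ghr (-1.27 ± 0.20), the acid-labile subunit Igfals (-2.47 ± 0.46) that carries IGF1 in blood, the feedback inhibitor Socs2 (-2.01 ± 0.58) and Igf1 (-0.48 ± 0.15) fell too, Igf1 by the least. The signal carriers Stat5a (-0.45 ± 0.18, dim) and Stat5b (-0.50 ± 0.21, dim) were not called. Of 17 female-biased genes 9 rose and 1 fell. Cyp2a4 (4.87 ± 0.45) measured 8.92, 10.73, 9.38 and 9.02 on CSAA and 13.39, 14.02, 15.37 and 14.74 on CDAA. Cyp17a1 (3.29 ± 0.55, floor 1.4), Slc22a27 (3.16 ± 0.41, dim), Ntrk2 (2.38 ± 0.36, dim), Cyp3a41a (1.90 ± 0.24, dim) and Cyp2b9 (4.06 ± 0.98, dim) rose as well. Cyp2b9 was far from even, at 4.40, 3.87, 4.03 and 4.04 on CSAA and 10.14, 4.68, 10.28 and 7.49 on CDAA. When only probe sets above background were tested, 3 female-biased genes were called higher. Serpina1e, Nudt7, Cyp2d9, Mup21, Mup3, Ghr, Igfals, Stat5a, Stat5b, Cyp17a1 and Cyp2b9 were named after their values were seen. Socs2 lost its call without CSAA replicate 1, 3 or 4 or CDAA replicate 1, 2 or 3 (-2.07 to -1.54). Igf1 lost its call without CSAA replicate 1, 3 or 4 or CDAA replicate 1, 2 or 3 (-0.53 to -0.39).

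Drug-metabolising families moved both ways. Cyp2a5 (4.52 ± 0.32), a coumarin hydroxylase with a near-identical copy in Cyp2a4, measured 12.65, 13.84, 12.61 and 12.52 on CSAA and 16.91, 17.11, 17.99 and 17.69 on CDAA. Cyp2b10 (3.64 ± 0.45, dim), the classical target of the receptor CAR, and Cyp3a11 (1.27 ± 0.19), that of PXR, rose, while Cyp2u1 (-3.04 ± 0.26), Cyp2c54 (-2.63 ± 0.45) and Cyp2j5 (-0.81 ± 0.14) fell; P450 families 1 to 3 counted 4 up and 7 down of 21. Glutathione transferases counted 8 up and 2 down of 21, and 7 and 4 with centring. The main counts are 38.1% and 9.52%, against 11.7% and 9.05% of all probe sets. Gstm3 (3.61 ± 0.13) measured 14.43, 14.24, 14.40 and 14.22 on CSAA and 18.01, 17.91, 17.91 and 17.89 on CDAA, and Gstm2 (2.36 ± 0.19), Gstm1 (1.09 ± 0.13) and Gsta4 (2.28 ± 0.38) rose. Of glucuronosyl- and sulfotransferases 4 rose and 8 fell of 19. Ugdh (1.84 ± 0.17), which makes the glucuronic acid donor, rose, and the transferases Ugt3a1 (-1.70 ± 0.25), Ugt2a3 (-1.26 ± 0.19) and Sult1b1 (-1.49 ± 0.27, floor -0.32) fell. No carboxylesterase rose and 8 of 15 fell, with Ces3b (-2.81 ± 0.30), Ces1e (-2.0 ± 0.20), Ces1f (-1.98 ± 0.22) and Ces4a (-2.49 ± 0.36, dim) among them. Cyp2c54, Cyp2j5 and Gsta4 were named after their values were seen.

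Targets of NRF2, the factor that answers oxidants, were up. Of 24 measured 16 rose and 1 fell, the latter being Me1 (-0.94 ± 0.26), which lies in the lipogenic list too. Srxn1 measured 7.50, 8.05, 7.70 and 7.12 on CSAA and 13.54, 14.99, 12.97 and 12.86 on CDAA, with CDAA replicate 2 the highest. Nqo1 (3.42 ± 0.24, dim), a quinone reductase, Hmox1 (3.44 ± 0.26, floor 3.15), which degrades haem, Slc7a11 (2.57 ± 0.41, dim), the cystine importer, and Txnrd1 (1.33 ± 0.24), thioredoxin reductase, rose. Gclc (0.47 ± 0.26) and Gclm (0.29 ± 0.14), the subunits that make glutathione's precursor, were not called. Nfe2l2 (0.74 ± 0.24, dim), the gene of NRF2 itself, rose. Upstream stretches of called members that hold the antioxidant element TGACNNNGC, or its complement, in the bases before the start are shown with the match in capitals, from RefSeq on GRCm38.p6.
Abcc4, chr14:118706220-118706274, - strand: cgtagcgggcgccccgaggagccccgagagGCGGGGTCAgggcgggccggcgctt
Txnrd1, chr10:82859084-82859152, + strand: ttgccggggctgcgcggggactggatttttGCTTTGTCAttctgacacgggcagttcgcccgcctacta
Nfe2l2, chr2:75704865-75704913, - strand: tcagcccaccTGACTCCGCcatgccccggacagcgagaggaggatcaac
The element was in the 300-base window of 9 of 23 genes of this list (39.1%), against 14% of all 27025 genes, a match of letters with no binding measured. The 9 included Me1, which fell, Gclm, which was not called, and G6pdx, which was not among the measured members. In the cholesterol synthesis list, where most genes fell, 4 of 16 held the element (25%). Me1, Txnrd1, Gclc, Gclm and Nfe2l2 were named after their values were seen. Me1 lost its call without CSAA replicate 1, 2 or 4 or CDAA replicate 1, 3 or 4 (-0.92 to -0.78). Nfe2l2 lost its call without CSAA replicate 3 or 4 or CDAA replicate 1, 2, 3 or 4 (0.51 to 0.81).

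Metal handling rose with them, 11 of 24 up and 1 down. Mt1 (4.69 ± 0.42) measured 11.40, 11.21, 12.36 and 13.22 on CSAA and 17.48, 16.80, 16.52 and 16.13 on CDAA, with Mt2 and Lcn2 in the same list. Slc11a2 (1.78 ± 0.18, dim), an iron importer, Slc40a1 (1.08 ± 0.16), the iron exporter, and the ferritin chains Fth1 (0.59 ± 0.13) and Ftl1 (0.80 ± 0.13) rose, and Tfr2 (-1.23 ± 0.16), an iron sensor of hepatocytes, fell. Hamp (0.53 ± 0.18), the iron hormone hepcidin, was not called. Slc40a1, Fth1, Ftl1, Tfr2 and Hamp were named after their values were seen.

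Plasma proteins made by the liver were divided. Of 25 complement genes 6 rose and 11 fell. The 6 that rose are known from macrophages and granulocytes, the C1q chains C1qa (1.84 ± 0.22), C1qb (2.75 ± 0.30) and C1qc (2.16 ± 0.26, floor 1.41), the receptors C3ar1 (3.72 ± 0.28, floor 0.01) and C5ar1 (1.41 ± 0.21, dim), and properdin, Cfp (1.76 ± 0.22). The 11 that fell are proteins that hepatocytes secrete, led by the terminal components C8b (-2.95 ± 0.17), C6 (-2.04 ± 0.19), C8a (-1.85 ± 0.15) and C9 (-1.41 ± 0.15) and by the lectin Mbl1 (-1.57 ± 0.18). C8b measured 15.46, 15.18, 15.69 and 15.62 on CSAA and 12.19, 12.73, 12.66 and 12.58 on CDAA, without overlap. Hc (-1.02 ± 0.14), which encodes C5, fell too. In coagulation 5 of 25 rose, Plau (3.09 ± 0.22, dim) and Plaur (2.73 ± 0.33, dim), the urokinase and its receptor, among them, and 9 fell, among them F11 (-1.57 ± 0.26) and F7 (-0.86 ± 0.16). Acute phase genes counted 6 up and 4 down of 23, which turned to 6 and 8 with centring. Saa3 (3.09 ± 0.21, floor 2.45), made outside hepatocytes as well, Lbp (1.13 ± 0.18) and Orm2 (2.76 ± 0.50) rose, and Crp (-0.60 ± 0.14) fell. Orm2 measured 11.13, 9.91, 11.46 and 12.77 on CSAA and 13.46, 14.89, 14.12 and 13.87 on CDAA. Alb (0.00 ± 0.12) lay at 19.3 on CSAA and on CDAA and was not called. With all 14 arrays in the fit complement counted 6 up and 6 down, and with centring 6 up and 15 down. C1qa, C1qb, C1qc, C5ar1, Cfp, C9, Mbl1, Hc and Crp were named after their values were seen. The 5 higher calls of the coagulation and fibrinolysis list became 3 without CSAA replicate 3 or 4 or CDAA replicate 4. The 6 higher calls of the acute phase proteins list became 10 without CSAA replicate 4. The 4 lower calls of the acute phase proteins list became 2 without CSAA replicate 3 or 4 or CDAA replicate 2 or 4.

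Hepatocyte transcription factors were lower or not called, 5 of 18 down and 0 up. Onecut1 (-3.96 ± 0.97) measured 14.34, 10.25, 14.93 and 14.46 on CSAA and 8.25, 8.56, 9.82 and 11.52 on CDAA, and CSAA replicate 2 overlapped the CDAA arrays. With trend and robust moderation its call was lost (limma, adjusted p = 0.077). Cebpa (-1.07 ± 0.17) and Foxa1 (-1.83 ± 0.43, dim) fell besides Mlxipl, and Hnf4a (-0.53 ± 0.16) fell by the least. Of 29 nuclear receptors 1 rose, Pparg (1.75 ± 0.26, dim), and 2 fell, Thrb (-1.31 ± 0.26) and Hnf4a, while with centring 5 were lower. That is 3.45% up and 6.9% down, against 11.7% and 9.05% of all probe sets. Secreted growth and stress factors and their receptors counted 6 up and 6 down of 27. Egfr (-3.44 ± 0.49), the receptor of epidermal growth factor, measured 14.64, 14.46, 15.44 and 15.42 on CSAA and 10.24, 11.02, 11.92 and 13.02 on CDAA, and Inhba (-2.45 ± 0.43, floor -0.44) and Enho (-1.74 ± 0.18, dim) fell with it, whereas Igfbp7 (1.34 ± 0.18) and Fgf21 (2.58 ± 0.78) rose. With centring 11 transcription factors were lower. Hnf4a lost its call without CSAA replicate 1, 3 or 4 or CDAA replicate 1, 3 or 4 (-0.57 to -0.43). Fgf21 lost its call without CSAA replicate 1, 2 or 3 or CDAA replicate 1 or 2 (1.94 to 2.60). The 5 lower calls of the hepatocyte transcription factors list became 8 without CDAA replicate 3. The 6 higher calls of the secreted growth and stress factors list became 2 to 3 without CSAA replicate 1 or 2 or CDAA replicate 1.

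Some liver enzymes of glucose and amino acid metabolism were lower, though most of those measured were not called, and some general forms of glycolytic enzymes were higher. In glucose output 6 of 17 fell and 1 rose. G6pc (-2.31 ± 0.31), which releases glucose, measured 17.54, 17.16, 17.72 and 17.55 on CSAA and 14.95, 16.28, 14.73 and 14.77 on CDAA, CDAA replicate 2 being the highest of its group. Ppp1r3b (-2.81 ± 0.22) and Ppp1r3c (-2.89 ± 0.47), which target phosphatase to glycogen, and Pygl (-0.96 ± 0.15), liver glycogen phosphorylase, fell. In glycolysis 7 rose and 4 fell of 22. Pkm (3.28 ± 0.22, floor 1.37), the pyruvate kinase of most tissues, Aldoa (1.5 ± 0.17), Slc2a1 (2.37 ± 0.34, floor 1.59), Hk1 (0.91 ± 0.18, dim) and Pfkp (1.49 ± 0.25, dim) rose, while the liver forms Pklr (-1.71 ± 0.36) and Khk (-1.03 ± 0.30) and the aldolase Aldoc (-2.71 ± 0.16, dim) fell. Pkm measured 8.32, 8.09, 8.33 and 7.98 on CSAA and 12.03, 11.51, 10.85 and 11.44 on CDAA. Of the urea cycle and amino acid breakdown 12 of 28 fell and 2 rose. Agxt (-1.83 ± 0.29), which removes glyoxylate, Haao (-1.67 ± 0.20), Kynu (-1.31 ± 0.15) and Kmo (-1.10 ± 0.25) of tryptophan breakdown, Otc (-0.54 ± 0.14) and Arg1 (-1.09 ± 0.28) of the urea cycle and Hal (-1.78 ± 0.46) fell, and Gpt2 (1.87 ± 0.18) rose. Cps1 (-0.16 ± 0.15), the entry of the urea cycle, was not called. Ppp1r3c, Hk1, Pfkp, Pklr, Khk, Kmo, Otc, Hal and Cps1 were named after their values were seen. Khk lost its call without CSAA replicate 2, 3 or 4 or CDAA replicate 3 or 4 (-1.11 to -0.98). Otc lost its call without CSAA replicate 3 or CDAA replicate 4 (-0.52 to -0.51). Hal lost its call without CSAA replicate 2 (-1.53).

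Genes of both zones of the lobule were called in part. Pericentral genes counted 1 up and 2 down of 15 and periportal genes 2 and 3 of 10. Against 11.7% and 9.05% of all probe sets, these are 6.67% and 13.3% of the pericentral genes and 20% and 30% of the periportal ones. The glutamate importer Slc1a2 (-1.64 ± 0.53) of pericentral cells measured 13.03, 13.04, 12.95 and 12.79 on CSAA and 9.77, 11.04, 13.19 and 11.25 on CDAA, where replicate 3 lay above every CSAA array. The periportal enzymes Hal, Arg1 and Etnppl (-1.49 ± 0.39) fell. Chaperones of the endoplasmic reticulum counted 0 up and 6 down of 21, with Creld2 (-2.43 ± 0.40) and Sdf2l1 (-1.76 ± 0.38) falling. Slc1a2 lost its call without CSAA replicate 1, 2, 3 or 4 or CDAA replicate 1, 2 or 4 (-1.69 to -1.12). Etnppl lost its call without CDAA replicate 1 or 4 (-1.42 to -1.39). The 6 lower calls of the endoplasmic reticulum chaperones list became 3 without CSAA replicate 3 or CDAA replicate 1 or 3.

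Stress factors that act through ATF4 and p53 were up. The integrated stress response counted 11 up and 0 down of 23. Nupr1 (4.59 ± 0.53, floor 2.24), a stress-induced chromatin protein, measured 7.15, 7.58, 8.44 and 7.77 on CSAA and 13.38, 13.30, 10.62 and 11.99 on CDAA. Trib3 (3.31 ± 0.48, floor 1.14), Ddit3 (2.26 ± 0.49, floor 0.86), which encodes CHOP, and Atf3 (2.64 ± 0.45, floor 1.16) rose, and Atf4 (0.51 ± 0.28) was not called. For Gdf15 no named probe set was found. Targets of p53 counted 13 up and 0 down of 18, with Eda2r (3.14 ± 0.22, dim), Ccng1 (1.20 ± 0.14) and Mdm2 (1.27 ± 0.17) beside Cdkn1a. Ccng1 measured 13.41, 13.03, 13.10 and 13.06 on CSAA and 14.34, 14.31, 14.26 and 14.47 on CDAA, all above background. Cdkn1a measured 7.92, 6.32, 7.95 and 6.11 on CSAA and 12.48, 12.95, 10.71 and 11.72 on CDAA, lowest in its group on CDAA replicate 3. Of immediate early and heat shock genes 7 rose and 2 fell of 24, and 4 were lower with centring. The main counts are 29.2% and 8.33%, against 11.7% and 9.05% of all probe sets. Klf6 (3.49 ± 0.27, floor 0.68), Egr2 (2.13 ± 0.31, dim) and Hspb1 (1.73 ± 0.25, dim) rose and Dusp1 (-1.99 ± 0.26), a phosphatase of MAP kinases, fell. Ddit3 and Atf4 were named after their values were seen.

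Genes of cell division rose, most of them under background on all 8 arrays, 22 of 22 in the mitosis list and 19 of 22 in the DNA replication list. Mitosis counted 19 up and 0 down of 22, with Mki67 (3.47 ± 0.21, dim), Cdk1 (2.62 ± 0.21, dim), Ccnb2 (2.89 ± 0.28, dim) and Plk1 (2.23 ± 0.23, dim). The filter to probe sets above background left this whole list untested. Mki67 measured 6.01, 5.31, 5.87 and 5.49 on CSAA and 8.77, 9.59, 9.06 and 9.16 on CDAA. DNA replication counted 12 up and 1 down of 22. Of the 12 that rose, Pcna (1.25 ± 0.14), the replication clamp, alone lay above background on all 8 arrays, at 12.56, 12.63, 12.62 and 12.53 on CSAA and 13.77, 13.93, 13.66 and 13.99 on CDAA. Mcm6 (2.46 ± 0.15, dim), Mcm2 (1.85 ± 0.18, dim) and Mcm5 (1.48 ± 0.17, dim) of the replicative helicase rose. Mcm10, an initiation factor, went the other way, at 14.05, 13.30, 14.08 and 14.18 on CSAA and 10.05, 10.24, 12.77 and 12.27 on CDAA (-2.57 ± 0.54), lower on CDAA replicates 1 and 2 than on 3 and 4.

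Cytoskeletal, annexin and S100 genes rose in 26 of 31, with none falling and a median of 1.84. Krt8 (3.04 ± 0.23) and Krt18 (2.20 ± 0.23), the keratins of hepatocytes, Vim (3.08 ± 0.20, floor 1.98), the intermediate filament of mesenchymal and blood cells, Anxa5 (2.87 ± 0.19) and S100a11 (3.55 ± 0.19, floor 3.16) rose. Krt8 measured 11.50, 12.17, 12.35 and 12.25 on CSAA and 15.48, 15.33, 14.66 and 14.96 on CDAA. Vim measured 8.74, 9.12, 9.10 and 8.98 on CSAA and 12.65, 11.74, 11.87 and 12.00 on CDAA. The groups stood apart in both, and each CDAA array was above background. Of 19 ductular and foetal liver genes 3 rose, Ly6d, Abcc4 and Gpc3 (0.91 ± 0.28, dim), and Epcam (0.62 ± 0.30, dim) and Sox4 (0.54 ± 0.20, dim) were not called. That is 15.8% up, against 11.7% of all probe sets. Krt8 and Krt18 were named after their values were seen. Gpc3 lost its call without CSAA replicate 1, 2, 3 or 4 or CDAA replicate 1, 3 or 4 (0.75 to 0.96).

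Macrophage genes of the lipid-associated kind rose in 19 of 23, with 1 falling and a median of 2.86. Trem2 (4.05 ± 0.27, dim), the lipid receptor that marks these cells, measured 4.92, 4.88, 5.19 and 5.51 on CSAA and 9.73, 8.37, 9.41 and 9.18 on CDAA, with no overlap and no array above background. Cd63 (4.33 ± 0.36, floor 2.54), Itgax (2.86 ± 0.17, dim) and Lilrb4a (4.26 ± 0.21) rose, and Fabp5 was the member that fell, at 11.06, 11.21, 12.18 and 11.54 on CSAA and 9.51, 7.92, 8.07 and 8.74 on CDAA. Monocyte genes counted 13 up and 1 down of 17. Lyz2 (3.59 ± 0.23), lysozyme, measured 10.89, 10.69, 11.17 and 10.83 on CSAA and 15.21, 14.35, 14.06 and 14.32 on CDAA, and Ccr2 (4.04 ± 0.33, dim), the receptor that brings monocytes to tissue, Ly6c2 (2.96 ± 0.25, dim), Chil3 (4.42 ± 0.35, dim) and Cx3cr1 (2.32 ± 0.20, dim) rose. The monocyte list's falling member was the coagulation factor gene F10 (-0.68 ± 0.15), which hepatocytes also make. F10 was named after its value was seen.

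Kupffer cell genes did not fall as a group; 14 of 20 rose and 1 fell, the latter being C6, which hepatocytes also make. Cd5l (3.20 ± 0.19) measured 11.98, 11.46, 12.15 and 11.96 on CSAA and 15.40, 15.08, 14.81 and 15.06 on CDAA. Slc11a1 (3.27 ± 0.23, floor 2.19), Spic (2.94 ± 0.22, dim) and Clec1b (1.81 ± 0.15) rose. Clec4f, a lectin of Kupffer cells, measured 10.63, 10.24, 10.80 and 10.38 on CSAA and 11.67, 12.03, 10.85 and 11.75 on CDAA (1.06 ± 0.24), with the groups apart. Timd4, the marker of long-lived Kupffer cells, measured 7.90, 6.45, 7.74 and 7.43 on CSAA and 7.20, 8.39, 7.0 and 7.54 on CDAA (0.15 ± 0.35, dim, not called), wholly overlapping and under background.

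The receptors by which myeloid cells sense their surroundings rose as families. Toll-like receptors and adaptors counted 17 up and 1 down of 21, Fc and paired receptors 22 and 0 of 26, and C-type lectins 16 and 1 of 22. Tlr7 (2.53 ± 0.20, floor 0.63), which senses RNA, measured 8.18, 7.81, 8.73 and 8.02 on CSAA and 10.90, 10.58, 10.68 and 10.69 on CDAA. Tlr1 (3.43 ± 0.17, dim), Tlr13 (4.38 ± 0.25, dim) and Cd180 (3.53 ± 0.22, floor 1.68) rose, and Tirap (-0.65 ± 0.16, floor -0.27), the adaptor of TLR2 and TLR4, fell. Sirpa (3.41 ± 0.21), the receptor for CD47, and Tyrobp (3.08 ± 0.17, floor 0.34), the signalling partner of TREM2, rose in the paired receptor list, and Clec12a (3.28 ± 0.19, floor 2.38) and Clec4e (2.84 ± 0.22, dim) in the lectin list. Integrins and adhesion molecules counted 18 up and 0 down of 27, with Vcam1 (3.58 ± 0.21, floor 1.27), Cd44 (3.61 ± 0.27, floor 0.87) and Itgb2 (3.57 ± 0.20, dim). The phagocyte oxidase subunits Cybb (3.29 ± 0.24), Cyba (2.43 ± 0.20, dim), Ncf4 (1.73 ± 0.17, dim) and Ncf1 (1.67 ± 0.26, dim) and its regulator Rac2 (2.13 ± 0.24, dim) rose, and Nox4 (-1.77 ± 0.26), an oxidase of hepatocytes and stellate cells, fell. Tirap, Ncf1 and Nox4 were named after their values were seen.

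Secreted signals followed. Chemokine ligands counted 15 up and 2 down of 29, and chemokine receptors 5 up and 0 down of 18. Ccl6 (3.79 ± 0.18, floor 1.93) measured 8.46, 7.89, 8.24 and 8.32 on CSAA and 12.28, 12.24, 11.71 and 11.84 on CDAA, and Ccl3 (3.67 ± 0.26, dim), Ccl2 (3.31 ± 0.41, dim), Ccl9 (1.59 ± 0.17), Cxcl10 (3.53 ± 0.29, dim) and Cxcl16 (2.12 ± 0.30, floor 1.27) rose; the 2 that fell were Cxcl13 (-1.77 ± 0.29, dim) and Ccl25 (-0.56 ± 0.18, dim). Of the interleukin 1, TNF and inflammasome list 14 rose and 1 fell of 25. Tnfaip3 (4.03 ± 0.30, floor 0.19), the inhibitor A20 of NF-kappa B, Tnf (2.45 ± 0.37, dim) and Il1a (1.09 ± 0.16, dim) rose, Il1b (1.05 ± 0.57, dim) and Il6 (-0.43 ± 0.18, dim) were not called, and the receptor subunit Il1rap (-1.42 ± 0.18) fell. In the TNF superfamily 9 of 26 rose and 0 fell, and with centring 7 were higher and 2 lower; Tnfrsf12a (3.51 ± 0.43, floor 1.87), the receptor of TWEAK, measured 7.70, 8.26, 9.02 and 8.80 on CSAA and 12.78, 12.79, 11.01 and 11.25 on CDAA. Interferon-inducible genes counted 25 up and 0 down of 35, with Mx1 (2.10 ± 0.15, dim), Oasl2 (2.10 ± 0.19, dim) and Ifi204 (2.34 ± 0.21). MHC class II and dendritic cell genes counted 12 up and 0 down of 21, with H2-Aa (2.93 ± 0.29) and H2-Ab1 (3.12 ± 0.29, floor 2.65), and lysosome genes 20 and 1 of 31, with Ctss (3.06 ± 0.23) and Lgmn (2.30 ± 0.18). Of the proteasome and class I presentation list 7 of 25 rose and 1 fell, led by the immunoproteasome subunits Psmb10 (1.24 ± 0.18, dim) and Psmb8 (1.02 ± 0.18, dim), and 0 rose with all 14 arrays in the fit. Ccl2, Cxcl16, Cxcl13, Ccl25, Tnf, Il1b and Il6 were named after their values were seen. Ccl25 lost its call without CSAA replicate 1, 3 or 4 or CDAA replicate 1, 2 or 4 (-0.60 to -0.44).

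Genes of lymphocytes and granulocytes were measured near the lower end of the scale: 20 of 20 T and NK cell genes, 11 of 12 B cell genes and 14 of 14 neutrophil genes lay under background on all 8 arrays. T and NK cell genes counted 5 up and 1 down of 20, with the NK genes Ncr1 (1.32 ± 0.22, dim) and Klrb1c (1.57 ± 0.29, dim) and the cytotoxic genes Gzma (1.78 ± 0.33, dim) and Ccl5 (1.04 ± 0.18, dim) up and Cd4 (-0.81 ± 0.17, dim) down. That is 25% up, against 11.7% of all probe sets. Of 12 B and plasma cell genes limma called 0, and 0 had an unadjusted p under 0.05. Of 11 cholangiocyte genes limma called 0, with 0 at an unadjusted p under 0.05. Mast cell, basophil and eosinophil genes counted 1 up and 1 down of 15 (6.67% each, against 11.7% and 9.05% of all probe sets). Neutrophil genes counted 4 up of 14 (28.6%), with S100a8 (2.31 ± 0.50, dim) and Csf3r (2.30 ± 0.34, dim). S100a8 measured 2.83, 4.51, 3.95 and 4.41 on CSAA and 7.88, 5.73, 5.72 and 5.61 on CDAA, highest on CDAA replicate 1. Cd4 was named after its value was seen.

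Matrix genes rose and endothelial genes mostly were not called. Matrix and TGF beta genes counted 22 up and 0 down of 31, metalloproteinases and inhibitors 12 and 0 of 24, and collagens 9 and 3 of 20, the last with 8 and 5 after centring. Before centring 45% and 15% of the collagens were called up and down, against 11.7% and 9.05% of all probe sets. Col3a1 (3.96 ± 0.36, floor 1.64), a fibrillar collagen, measured 7.49, 7.56, 8.31 and 7.69 on CSAA and 12.90, 11.06, 11.18 and 11.74 on CDAA. Col1a1 (2.33 ± 0.33, dim) measured 6.32, 6.03, 5.67 and 6.15 on CSAA and 9.46, 7.59, 8.20 and 8.22 on CDAA. Both stood apart by diet and were highest on CDAA replicate 1, and Col1a1 stayed under background on all 8 arrays. Col27a1 (-1.99 ± 0.17, dim), Col18a1 (-0.70 ± 0.16) and Col4a5 (-0.57 ± 0.13, dim) fell. Sparc (2.66 ± 0.22), Lum (2.49 ± 0.31, floor 1.49), Nid1 (3.06 ± 0.26, floor 0.76) and Tnc (1.89 ± 0.21, dim) of the matrix, Tgfb1 (2.14 ± 0.29), the main activator of stellate cells, and Mmp13 (5.14 ± 0.21, dim) and Timp1 (2.90 ± 0.37, dim) rose. Of 18 stellate cell genes 6 rose and 1 fell; Acta2 (2.37 ± 0.39, dim), the actin of activated stellate cells, measured 6.48, 5.98, 6.27 and 4.87 on CSAA and 9.04, 8.66, 7.52 and 7.87 on CDAA. Pdgfrb (1.57 ± 0.32, dim), Cygb (1.65 ± 0.33, dim) and Fbln5 (1.87 ± 0.29, dim) rose, and Vipr1 (-0.61 ± 0.18, dim) fell. Sinusoidal endothelial genes counted 6 up and 0 down of 26, Lyve1 (2.58 ± 0.22, floor 0.64), Cd34 (1.71 ± 0.19, dim) and Plvap (1.75 ± 0.24) among those that rose. With centring 4 of these endothelial genes were higher and 3 lower, and with quantile normalization 5 and 1. Col18a1, Col4a5 and Vipr1 were named after their values were seen. Vipr1 lost its call without CSAA replicate 1, 2 or 3 or CDAA replicate 1 or 2 (-0.61 to -0.49).

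**Figure D4:**
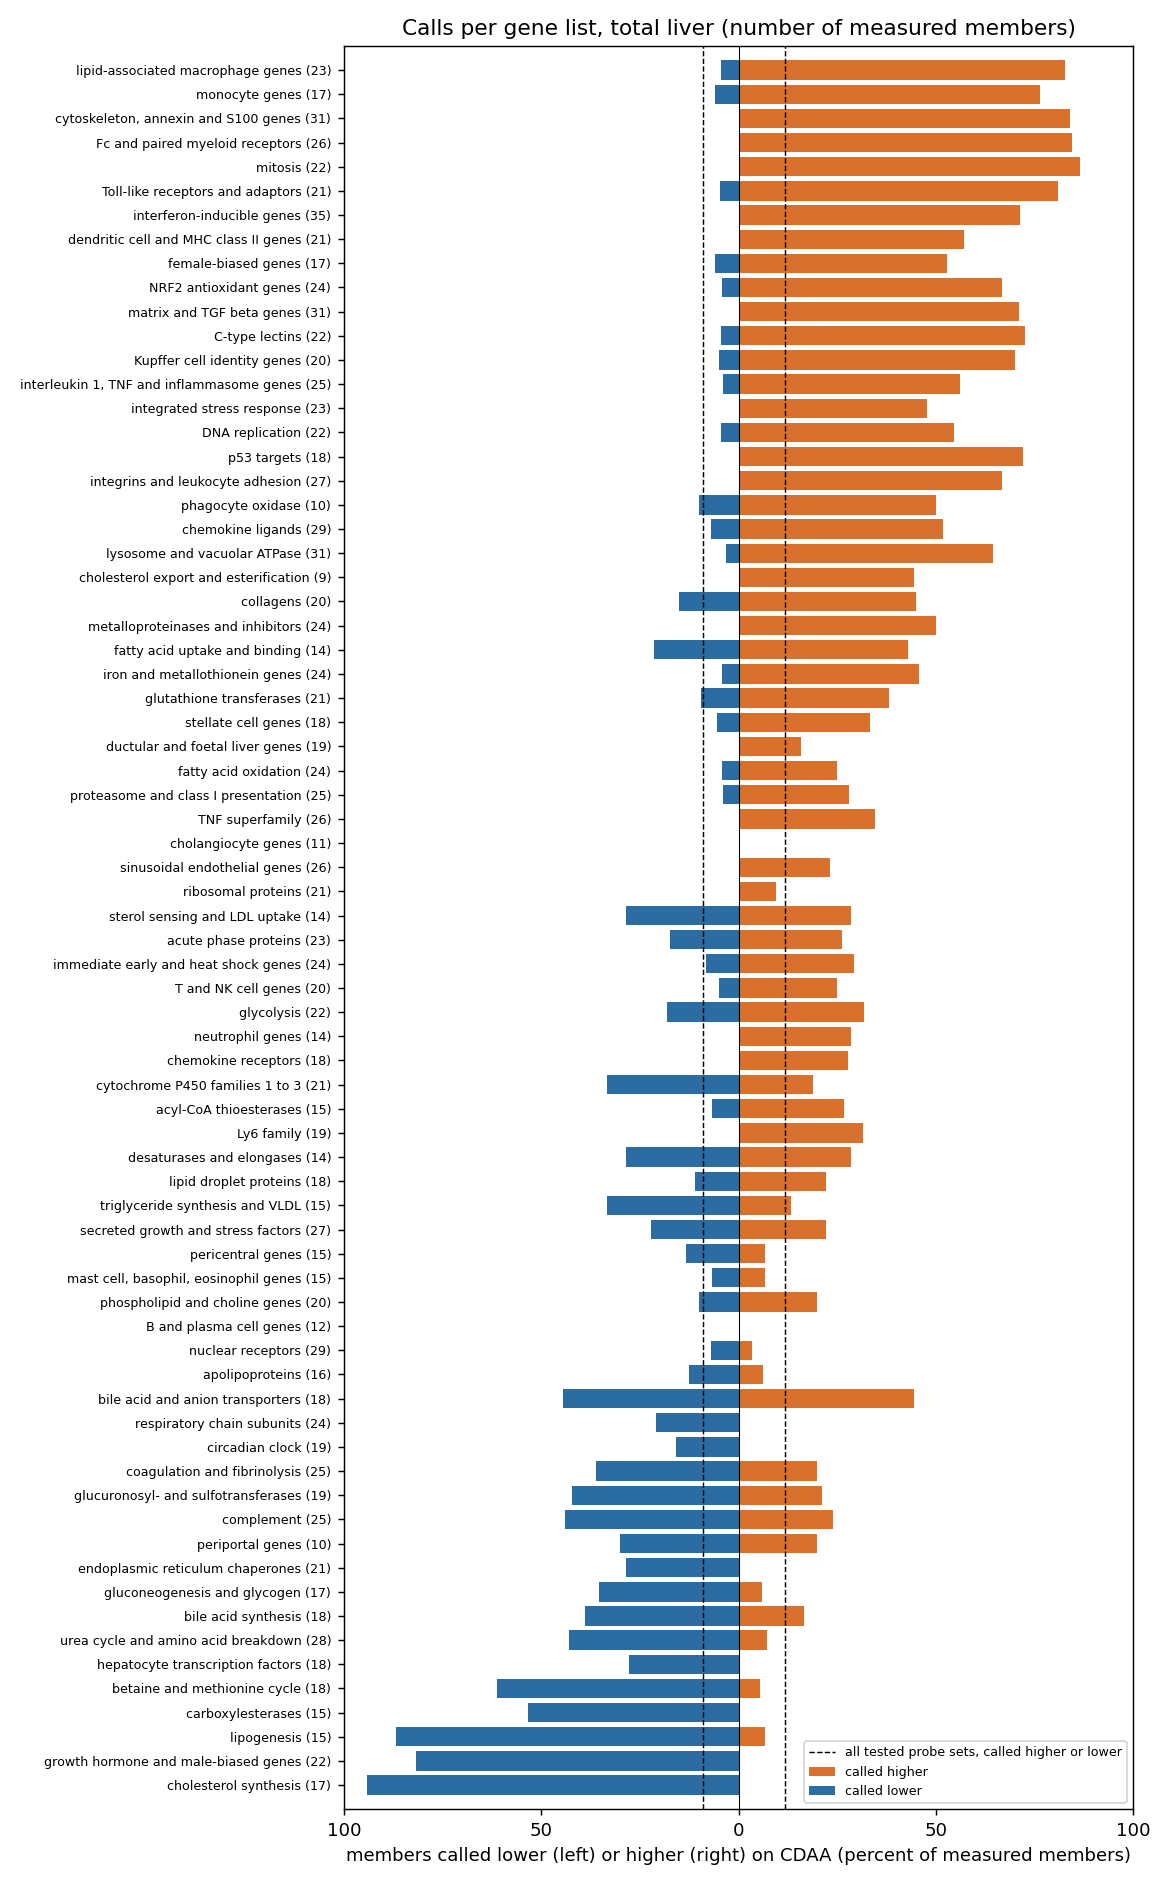
Percent of the measured members of each of 72 gene lists called higher (right) or lower (left) on CDAA in total liver, with the number of measured members in brackets and the share over all tested probe sets as dashed lines at 11.7 and 9.05. Lists are ordered by median difference, from cholesterol synthesis (-3.00) to lipid-associated macrophage genes (2.86). Cholesterol synthesis (94.1% lower) and mitosis (86.4% higher) have the largest shares lower and higher, while B and plasma cell genes and cholangiocyte genes show no call. The lists were chosen with earlier results of these data known, so their shares are not independent of these data.

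Some genes differed as much between preparations of 1 diet as between diets. Among the 3873 probe sets above background throughout, the median SD over 4 arrays was 0.157 on CSAA and 0.198 on CDAA, and it was larger on CDAA in 64%. By the rule of the largest CDAA spread above background, 10 genes were taken. Besides Cyp4a12a, Slco1a1, Cyp8b1, Slc1a2, Mcm10 and Socs2 they were Dbp, Upp2, Igfbp1 and Nr0b2. Dbp, a factor driven by the clock, measured 10.69, 13.08, 11.31 and 13.97 on CSAA and 11.43, 8.48, 16.36 and 15.29 on CDAA, high on CDAA replicates 3 and 4 and low on 1 and 2 (0.63 ± 1.44, not called). Upp2, a uridine phosphorylase with a daily rhythm, measured 12.83, 13.80, 12.73 and 13.88 on CSAA and 11.68, 12.11, 15.99 and 15.03 on CDAA, again high on replicates 3 and 4. Igfbp1, a binding protein that insulin lowers, measured 15.19, 12.41, 13.77 and 13.38 on CSAA and 16.62, 16.13, 12.96 and 14.34 on CDAA, high on CDAA replicates 1 and 2. Nr0b2 measured 11.85, 12.98, 10.98 and 12.04 on CSAA and 11.64, 8.92, 12.91 and 12.17 on CDAA, lowest on CDAA replicate 2.

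The other clock genes were looked at because of Dbp, so they were named after their values were seen. Arntl, the core activator BMAL1, measured 11.03, 10.84, 10.12 and 8.94 on CSAA and 11.11, 11.49, 6.76 and 8.30 on CDAA. Npas2, its partner, measured 8.56, 7.80, 7.77 and 5.93 on CSAA and 8.22, 9.30, 5.23 and 5.94 on CDAA. Both were high on CDAA replicates 1 and 2 and low on 3 and 4, opposite to Dbp. Per3 measured 6.11, 5.6, 6.07 and 6.73 on CSAA and 5.57, 4.54, 9.11 and 7.76 on CDAA, and Usp2 measured 3.65, 3.99, 4.32 and 4.91 on CSAA and 4.41, 4.29, 10.14 and 6.51 on CDAA, both with the order of Dbp. Nr1d1, the repressor REV-ERB alpha, measured 11.98, 13.54, 11.83 and 13.07 on CSAA and 11.72, 11.01, 13.12 and 13.29 on CDAA, and Nfil3 measured 9.38, 8.88, 7.76 and 7.92 on CSAA and 8.22, 9.23, 6.26 and 6.42 on CDAA. As a list the clock counted 0 up and 3 down of 19, Bhlhe40 (-1.02 ± 0.28), Clock (-0.72 ± 0.20) and Hlf (-0.95 ± 0.29, dim). That is 15.8% down, against 9.05% of all probe sets. The labels give a cycle of light and dark of 12 hours but no hour at which a liver was taken, so the part of the time of day in these differences, or in Chka and Igfbp1 beside them, was not tested. Bhlhe40 lost its call without CSAA replicate 3 or 4 or CDAA replicate 2 (-0.91 to -0.77). Clock lost its call without CSAA replicate 1 or 2 or CDAA replicate 3 or 4 (-0.70 to -0.55). Hlf lost its call without CSAA replicate 1, 3 or 4 or CDAA replicate 1, 2 or 4 (-1.03 to -0.68). The 3 lower calls of the circadian clock list became 1 without CSAA replicate 1, 3 or 4 or CDAA replicate 2 or 4.

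**Figure D5:**
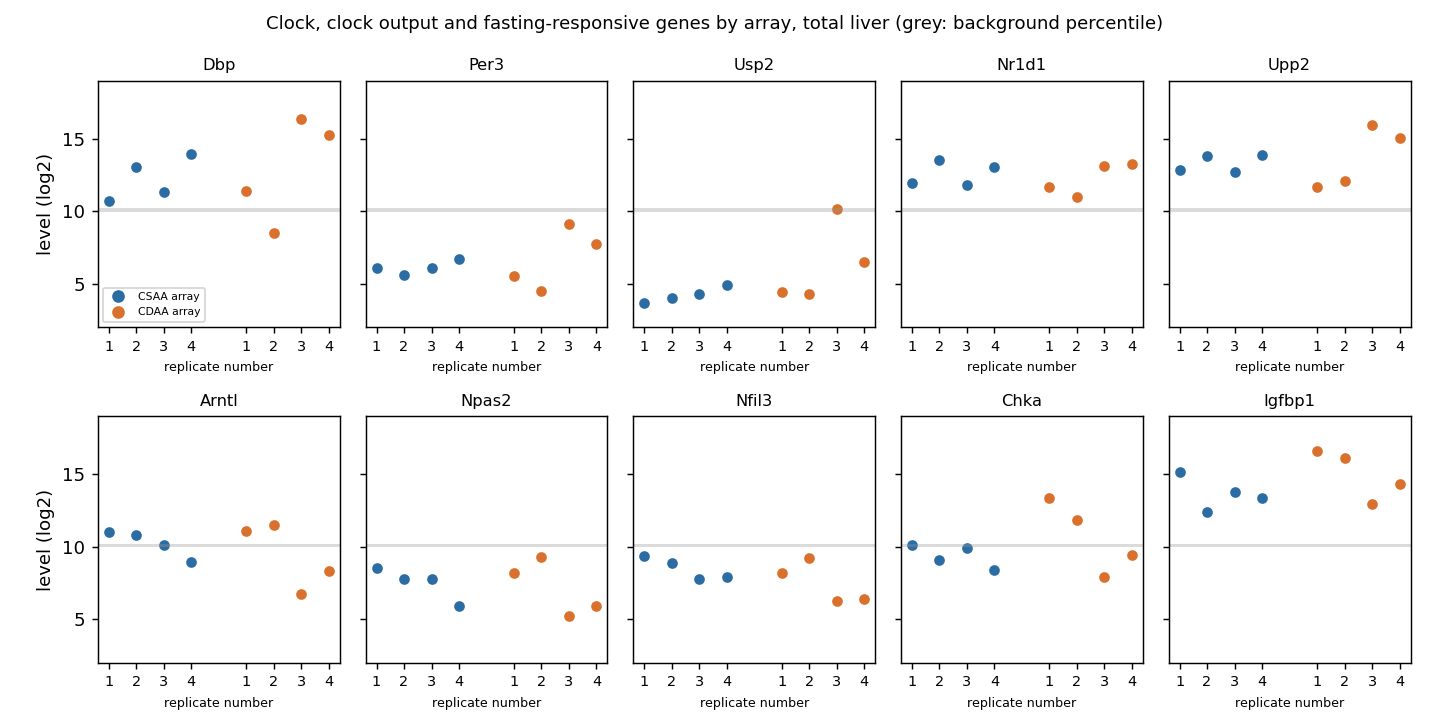
Levels (log2) of 10 genes on each total liver array, by replicate number within CSAA and CDAA; Dbp, Per3, Usp2, Nr1d1 and Upp2 in the top row, Arntl, Npas2, Nfil3, Chka and Igfbp1 in the bottom row. On CDAA the top row is lower on replicates 1 and 2 than on 3 and 4, and the bottom row is higher there.

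CSAA replicate 2 stood apart within the control diet, with the largest deviation from its group mean of the 8 arrays, 0.32 (root mean square) against 0.257 to 0.265 for the other CSAA arrays. On it Alas1, the first enzyme of haem synthesis, measured 11.18, against 15.88, 16.70 and 16.34 on the others, and Onecut1 10.25, against 14.34, 14.93 and 14.46. Gadd45g, a stress gene, measured 13.47, 7.59, 11.81 and 8.76 on CSAA and 10.14, 10.16, 8.55 and 9.12 on CDAA and was not called. Alas1 and Gadd45g were named after their values were seen. Without CSAA replicate 2 the whole comparison called 2293 probe sets higher and 1664 lower.

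In hepatocyte preparations all 30 genes of the largest-change rule changed in the direction seen in total liver, and all 30 were called there (limma, 14 arrays). The share of all probe sets called in hepatocyte preparations was not counted here, so the 30 calls cannot be set against it. The total liver and hepatocyte arrays look to have been normalized separately, so differences between their diet effects rest on scales that may not match. The diet effect differed between them in 4 of the 15 genes that rose and 0 of the 15 that fell, against 2.57% of all probe sets. At an unadjusted p under 0.05 it differed in 8 and 1, a limit for which no share of all probe sets was counted. In each of the 4 the measured difference was smaller in total liver. Mmp12 rose by 10.15 in total liver and by 14.39 in hepatocyte preparations. Lcn2 rose by 7.46 and 11.44. Lilr4b rose by 5.75 and 8.81, and Anxa2 by 5.35 and 7.54. The CSAA means behind these differences lay under background, apart from Lcn2 in total liver, where replicates 3 and 4 exceeded it. For Mmp12 they were 6.39 in total liver and 3.92 in hepatocyte preparations, for Lcn2 10.22 and 5.75, for Lilr4b 5.37 and 2.88 and for Anxa2 6.82 and 4.00. Background itself differed, at 7.57 to 8.01 on the hepatocyte CSAA arrays. With CSAA set to each tissue's background the rise of Mmp12 was 6.46 in total liver and 10.58 in hepatocyte preparations. That of Lcn2 was 6.90 and 9.45, that of Lilr4b 1.04 and 3.95 and that of Anxa2 2.09 and 3.80, values with no test. The CDAA means of Lcn2 (17.68 and 17.19) and Anxa2 (12.17 and 11.54) were the higher in total liver, on scales that may not match, so for those 2 genes the smaller difference rests on the CSAA values. Cidec went the other way by 1.69 ± 0.52, a difference that did not pass (limma, adjusted p = 0.13). With CSAA set to each tissue's background its rise was 0.89 in total liver and 1.24 in hepatocyte preparations. That direction therefore turned, in values with no test. Leaving out each of the 14 arrays in turn kept Mmp12, Lilr4b and Anxa2 past the threshold. Lcn2 lost its place in 7 of the 14 cases (over all 14 its difference was -4.55 to -3.41), namely without hepatocyte CDAA replicate 2, CSAA replicate 1 or 2, or total liver CDAA replicate 2, 3 or 4 or CSAA replicate 3 (highest adjusted p = 0.0802). Without hepatocyte CDAA replicate 1 the difference of Cidec passed (adjusted p = 0.0207) and 8 of the 30 genes differed in place of 4. Macrophage genes such as Mmp12, Gpnmb and Lilr4b reached 18.32, 13.90 and 11.69 in the hepatocyte preparations on CDAA, so those preparations held RNA of such genes too, and how much came from which cell was not tested.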

How the data were processed

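Total RNA of 8 total liver samples, 4 on each diet, was hybridised to 1 array per sample, labelled with a whole-transcript kit per the labels' protocols. The authors deposited log2 values per probe set made with RMA, per the submitters' processing notes; the RMA version, its settings and the treatment of the values above 16 are not given in the sources used here. Medians over all probe sets were 6.07 to 6.24 in the total liver arrays, and the scale of the upper range and whether genes or arrays were further centred stay unknown.

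From these values 6640 of 28846 probe sets were left out as controls and 22206 were tested, of which 19572 carried 1 gene symbol and 2634 none. For the 55 symbols with several probe sets the brightest stood for the gene. The diets were compared with limma 3.58.1 (R 4.3.3), lmFit and eBayes, with 6 residual and 5.23 prior degrees of freedom, a moderated two-sided test and Benjamini-Hochberg adjustment over the 22206 probe sets; the code was tested on simulated data, and summaries were made in Python 3.11.15 with pandas 2.3.3. With 4 arrays per diet, precision is limited by that number. The difference of the diet effects between tissues came from 1 fit of all 14 arrays. Alternatives were another moderation of the spread, all 14 arrays in the fit, filters on dim probe sets, centring, quantile normalization, array weights, a replicate block, the mean over probe sets and leaving out each array.

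Named genes were the 15 with the largest rise and the 15 with the largest fall among called genes whose diets did not overlap and whose brighter diet lay above background on all 4 arrays, without predicted genes, receptor segments and olfactory or vomeronasal receptors. Added were the 10 genes with the largest spread among CDAA arrays whose diet means lay above background, up to 4 measured members of each list with the smallest p, called or not, and a short fixed set. Genes outside these rules are marked as named after their values were seen. The 72 lists hold 1465 genes, of which 1339 were found and 126 were not. Members and lists were chosen with earlier results of these data known. Promoter sequences are from a RefSeq table of GRCm38.p6.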

Additional observations from a re-analysis of the deposited data

Results flagged for a closer look

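In 45 of 736 groups of 4 arrays (6.11%), over the 368 genes named here, 1 array lay so far from the other 3 of its diet that the gap exceeded the critical share of the range; chance alone gives this in about 1 in 20 groups. CDAA replicate 1 accounted for 12 of them and CSAA replicate 2 for 11. CDAA replicate 1 lay above its group in Cybb (14.31), Lilr4b (11.76), Lipa (15.64), Lpl (14.39), Ntrk2 (7.67), Pdgfrb (10.42), S100a8 (7.88), Tnf (7.09) and Vcam1 (11.96) and below it in Cyp4a12b (8.21), Lbp (14.54) and Slc22a28 (10.65). CSAA replicate 2 lay above its group in Atf3 (9.48), Cyp2a5 (13.84), Cyp2u1 (14.09) and Ppp1r3c (15.35) and below it in Adh6-ps1 (12.69), Alas1 (11.18), Idi1 (14.08), Il6 (3.35), Mcm10 (13.30), Onecut1 (10.25) and Slc44a2 (6.17). CDAA replicate 2 lay above its group in G6pc (16.28) and below it in Cd34 (6.59) and Scap (11.19). CDAA replicate 3 lay above its group in Ces1f (14.27), Pipox (14.95) and Tecr (13.36) and below it in Itgax (6.89) and Tnc (6.53). CDAA replicate 4 lay above its group in C8a (13.21), Mcm6 (9.87) and Psmb10 (9.61) and below it in Fth1 (18.68) and Ftl1 (17.42). CSAA replicate 1 lay above its group in Ccng1 (13.41), Ehhadh (15.19) and Il1rap (14.91) and below it in Epcam (3.85) and Hsd17b13 (17.20). CSAA replicate 3 lay above its group in Il1a (8.28) and Lpl (9.58) and below it in Me1 (14.72). CSAA replicate 4 lay above its group in Ncr1 (5.18). All values are log2 levels, and the cause was not tested. CSAA replicate 2 also had the largest deviation from its group mean over all probe sets, 0.32 (root mean square).

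The difference between the diet effects of the tissues (total liver minus hepatocyte preparations) passed limma's test in 4 of the 30 genes with the largest changes. It was -4.25 for Mmp12, -3.98 for Lcn2, -3.06 for Lilr4b and -2.19 for Anxa2, all log2. The CSAA means lay under background in both tissues, apart from Lcn2 in total liver (10.22), so the sizes rest in part on low CSAA values. On CDAA Lcn2 and Anxa2 lay higher in total liver than in hepatocyte preparations (17.68 against 17.19 and 12.17 against 11.54). These genes rose in both tissues, and whether the separate normalization of the tissues has a part in the sizes was not tested.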

How the results depend on the processing

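Of the 368 named genes, 266 kept their direction and their side of the threshold under all alternatives that tested them. So did 39 of 144 list counts and 3 of 5 tissue differences. Filters left some genes out. With only probe sets above background 248 of the 368 genes kept their result, 3 had a stronger one and the rest were not tested. Without any alternative 2603 probe sets were called higher and 2010 lower, 1390 and 496 by at least 1. All 14 arrays in the fit gave 1494 and 785. Testing only probe sets above background gave 1144 and 964, and 414 and 292 by at least 1, with fewer tested. Centring gave 4102 lower and 2106 higher, and quantile normalization 2293 higher and 2302 lower. Leaving out 1 array gave 2132 to 2449 higher and 1343 to 1682 lower, and 1278 to 1476 and 440 to 555 by at least 1. The replicate numbers did not pair the samples (residual correlations 0.0152, -0.0145, -0.126 and -0.0224), and the replicate block called 3855, 2290 higher and 1565 lower. Signs turned only in genes that were not called. With array weights Nr1d1 was 0.022 and Plin2 -0.049. With centring Apob was -0.018, Ggps1 -0.046 and Plin2 -0.106. With quantile normalization Ggps1 was -0.060, Timd4 -0.066 and Alb 0.000. Leaving out 1 array gave ranges across 0 for Plin2 (-0.125 to 0.131), Nr0b2 (-1.055 to 0.274), Nr1d1 (-0.657 to 0.101), Timd4 (-0.156 to 0.331), Arntl (-1.511 to 0.067), Dbp (-0.530 to 2.098), Npas2 (-1.050 to 0.307), Per3 (-0.171 to 1.353), Upp2 (-0.368 to 1.069), Gadd45g (-1.854 to 0.108), Alas1 (-0.472 to 1.369) and Alb (-0.021 to 0.023). The cause of these turns was not tested. With trend and robust moderation 12 named genes lost their call (Abcg5, Cyp2b9, Cyp4a10, Cyp7a1, Ehhadh, Fgf21, Hal, Khk, Lpin1, Onecut1, Slc1a2 and Socs2), and with the replicate block 10 did. Since 19.5% to 22.4% of the tested probe sets of an array exceeded background, little can be said of the levels of the rest.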
